A study of Ulmus pumila with 3 samples.

Results

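The comparison set small RNA of Siberian elm (Ulmus pumila) roots from seedlings given 200 mM NaCl for 24 h against roots from seedlings given 50 mM NaCl for 6 h. Both groups were wild-type seedlings 30 days old. Each group is 1 library, and another library, from seedlings of the same age without added salt (control), is quoted beside the values as a level. All 3 tables list microRNA (miRNA) names with a sequence and a read count. A name entered the comparison, joined by name and sequence, when it had at least 20 counts in 1 of the 2 salt libraries. This left 159 names of the 307 listed in either salt library and of the 309 listed in the series. Dose and time differ together and cannot be told apart, and with 1 library per group no difference was tested between conditions. The number of plants per library is not stated in the labels. The tables hold no messenger RNA, so the root label could not be checked against root markers.

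Plant miRNAs are cut by DCL1 from hairpin precursors, which leaves a duplex of a 5p and a 3p arm. Usually 1 arm is kept in an Argonaute protein, where it guides cleavage of transcripts with a near-perfect match. In roots, miRNAs are known for setting the dose of auxin response factors, for holding back GRAS, NAC, MYB and HD-ZIP III transcription factors, and for signalling phosphate and copper supply. Most plant miRNAs are 21 nt long, while 24 nt is the usual length of the small interfering RNAs that direct DNA methylation.

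The sequences printed here are those behind the widest differences and behind names that differ by a base or a few and yet parted between the libraries. They are given 5′ to 3′ as the authors list them, with bases 2 to 8 (the seed) in capitals. Names that the authors list as new are written new-, with the number of the hairpin and the arm. The first set holds both arms of hairpin 11, whose 3p arm had the highest ratio, and new-13-5p.
new-11-3p: uCAUAUUUguuucacugccuguug
new-11-5p: aCAGGCGGuggaucaaauaugaau
new-13-5p: uCAUGGAUauauuucucgaaau

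The second set holds the arms of hairpins 1 and 15, and of hairpins 7 and 25, which match each other across the hairpins. The pairs new-1-3p and new-15-3p, new-1-5p and new-15-5p, new-7-3p and new-25-3p, and new-7-5p and new-25-5p each share a seed.
new-1-3p: gAAGCCUUaaagggagagugg
new-15-3p: gAAGCCUUaaugggagaguga
new-1-5p: aCUCUCCCauuaaggcuucug
new-15-5p: aCUCUCCCuuuaaggcuucuu
new-7-3p: cUUCGAAAucaccucauuaca
new-25-3p: cUUCGAAAucuccucauuaca
new-7-5p: uAAUGAGGagauuucgaagga
new-25-5p: uAAUGAGGugauuucgaaga

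The third set holds numbered miRNAs of the auxin, phosphate and copper families, together with the new names that resemble miR399. The names miR160c to miR160f share 1 seed, miR399a to miR399c another, and miR398a and miR398c another; miR160a is the complement of miR160d over 21 nt.
miR160d: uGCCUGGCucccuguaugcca
miR160e: uGCCUGGCucccuguaugccg
miR160f: uGCCUGGCucccugaaugcca
miR160a: uGGCAUACagggagccaggca
miR399a: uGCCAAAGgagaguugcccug
miR399b: uGCCAAAGgagaauugcccug
miR399c: uGCCAAAGgagauuugccccg
new-18: gUGCAAUUcuccuuuggcagc
new-3-3p: cGCCAAGAagaguugcccugu
new-3-5p: aGGGCAUCucuucauuggcaag
miR398a: uGUGUUCUcaggucgccccug
miR398b: uAUGUUCUcaggucgccccug
miR398c: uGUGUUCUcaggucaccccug

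The fourth set holds members of miR171 and miR167 with unlike ratios, the most counted names of miR159 and miR166, and miR482. The names miR167a, miR167d and miR167e share a seed and differ in the last base only.
miR171a: uUGAGCCGcgucaauaucucc
miR171d: uUGAGCCGcgccaauaucacu
miR171k: uUGAGCCGcgccaauaucaca
miR171h: uGAUUGAGccgugccaauauc
miR167a: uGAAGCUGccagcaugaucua
miR167d: uGAAGCUGccagcaugaucug
miR167e: uGAAGCUGccagcaugaucuu
miR159a: uUUGGAUUgaagggagcuccu
miR166a: uCUCGGACcaggcuucauuc
miR482: uUUCCAAUuccacccauuccua

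The counts summed to 545587 over 281 names in the 200 mM library and to 449522 over 283 names in the 50 mM library, with 509280 over 293 names in the control library. Levels are reads per 1000000 of these sums (RPM). The 159 compared names held 99.91% of the counts at 200 mM and 99.86% at 50 mM. Of the 159 names, 124 carry a family number, from 31 families, and 35 are new. Names of overlapping sequence often share counts, so the sums count some reads more than once. A ratio is the RPM at 200 mM and 24 h over that at 50 mM and 6 h, with an exact 95% interval that covers counting error only. The median width of that interval, its upper over its lower bound, was 2.90-fold for the 55 names whose larger count was 20 to 99 and 1.04-fold for the 13 names of 10000 or more. Names just inside the minimum were miR164c, with 10 counts at 200 mM and 20 at 50 mM, and miR403b, with 21 and 14. Just outside it were new-31, with 19 and 6 counts, and miR398d, with 18 and 9.

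In RPM, the library of the stronger and longer treatment had lower levels of most names. This depended on scaling, as given below. The most counted family, miR159, filled more of that library. Names were called higher with a ratio of 2 or more, or lower with a ratio of 0.5 or less, provided that the interval left out 1. By this rule 10 names (6.29%) were higher and 30 (18.9%) were lower at 200 mM. With no condition on the interval 11 (6.92%) were higher and 30 (18.9%) lower, and with intervals wholly past 2-fold 5 (3.14%) and 10 (6.29%). Intervals that excluded 1, at any size of difference, were found for 39 names (24.5%) above 1 and 70 (44.0%) below. In all, 107 names had a ratio under 1 and 52 a ratio over 1, with a median log2 ratio of −0.23 and quartiles of −0.63 and 0.21. Ratios of 101 names lay within 1.5-fold either way. The split depended on scaling: it was 13 higher and 16 lower with TMM factors, which raise every log2 ratio by 0.37, and 13 and 20 with median-of-ratios factors, which raise it by 0.23. It was 11 and 25 with totals that left out miR159a, which raise it by 0.11. A negative log2 ratio smaller than 0.37 in size, whether of a name, a family or a median, therefore turns positive with TMM factors. All 10 higher names stayed called under these 3 scalings, but this was fixed in advance, since each scaling raises every ratio. Of the 30 lower names, 16 stayed with TMM factors, and the others are named with their families.

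**Figure D1:**
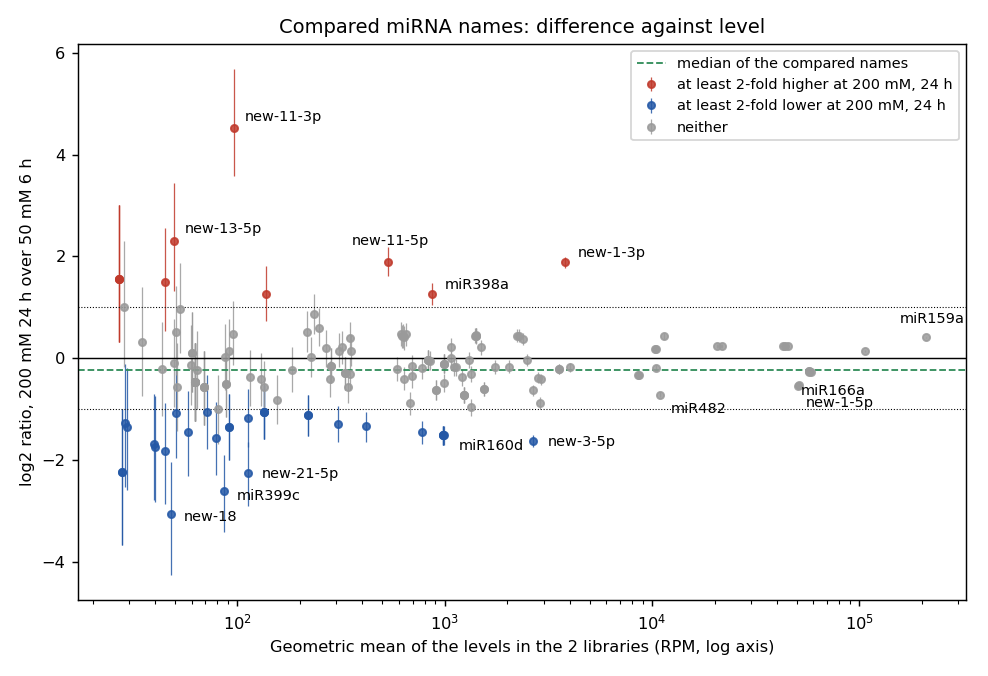
Each point is 1 of the 159 compared names. The x axis is the geometric mean of its RPM in the 200 mM and 50 mM libraries (log axis) and the y axis its log2 ratio, 200 mM over 50 mM, with exact 95% intervals for counting error. Dotted lines mark 2-fold and the dashed line the median of −0.23. The called names lie mostly among the less counted ones, and new-11-3p stands alone at 4.53.

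Of the 159 names, 21 reached the minimum in a single salt library, so that a higher count in that library was part of their choice. Among them are 6 of the 10 higher and 11 of the 30 lower names. The higher ones are new-11-3p, new-13-5p, miR1511, miR8155, miR5139 and miR3711. The lower ones are new-18, miR399c, miR171k, the miR171g of 21 nt, new-25-5p, new-5-5p, new-24, new-6-5p, miR164b, miR164c and new-19-5p. By depth, 19 of the 55 names with a larger count of 20 to 99 were lower and 5 higher, while none of the 13 names of 10000 or more counts was called either way. The names of 100 to 999 counts gave 4 higher and 10 lower of 70, and those of 1000 to 9999 counts 1 higher and 1 lower of 21. These 2 were new-1-3p and new-3-5p.

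Both 24 nt arms of new hairpin 11 stood above the 50 mM library, and its 3p arm had the highest ratio of the 159 names. new-11-3p had 253 counts (464 RPM) at 200 mM and 9 counts (20.02 RPM) at 50 mM, which is 23.2-fold higher (12.01 to 51.2). In the control library it had 8 counts, so the 200 mM library stood apart from both others. Since new-11-3p reached the minimum in the 200 mM library alone, a higher count there was part of its choice. new-11-5p had 562 counts at 200 mM and 124 at 50 mM, which is 3.73-fold higher (3.07 to 4.57), and 125 in the control library. The less counted arm thus differed more, and the 3p arm made up 31.0% of the counts of both arms at 200 mM (exact binomial interval 27.9% to 34.3%) and 6.77% at 50 mM (3.14% to 12.5%). new-13-5p, of 22 nt, followed the same course with few counts: 60 at 200 mM, 10 at 50 mM and 9 in the control library, a ratio of 4.94 (2.51 to 10.8).

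The other 4 compared names of 24 nt lay lower than the arms of hairpin 11. new-37 had a ratio of 1.38 (1.18 to 1.62), and miR167h had 0.904 (0.776 to 1.05). new-19-5p was 2.11-fold lower (1.16 to 3.92), with 19 counts at 200 mM and 33 at 50 mM, and was no longer called under any of the 3 other scalings. new-9-3p was 2.96-fold lower (1.83 to 4.92), with 25 counts against 61, while its other arm, new-9-5p, had a ratio of 1.16 (1.04 to 1.29). Of the 24 nt names under the minimum, new-31 had 19 counts at 200 mM, 6 at 50 mM and 5 in the control library, and no other had over 7 counts in a salt library. The share of all counts in 24 nt names was 0.309% at 200 mM and 0.188% at 50 mM. It includes the arms of hairpin 11, with 562 and 253 counts at 200 mM and 124 and 9 at 50 mM. Without that hairpin, the 4 compared names of 24 nt had a median log2 ratio of −0.61.

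Hairpins 1 and 15 gave the most counted of the differing new names. new-1-3p had 3986 counts (7306 RPM) at 200 mM and 889 (1978 RPM) at 50 mM, which is 3.69-fold higher (3.43 to 3.98), with 1057 counts in the control library. new-15-5p had 116 counts at 200 mM and 40 at 50 mM, 2.39-fold higher (1.65 to 3.51), with 74 in the control library. In the sequences printed, new-15-5p is the complement of new-1-3p over 19 nt with no mismatch. The other arms went the other way: new-1-5p had 23086 counts at 200 mM and 27533 at 50 mM, a ratio of 0.691 (0.679 to 0.703), and new-15-3p had 22975 and 27442, a ratio of 0.690 (0.678 to 0.702). These are again complementary to each other over 19 nt with no mismatch, and their counts were near-equal in all 3 libraries. Across the hairpins, then, each arm had the direction of the name it pairs with exactly, not that of the arm that shares its number. Against the latter it has 1 mismatch in 19 nt. As their counts were near-equal, new-1-5p and new-15-3p do not count as separate observations. Whether the same reads are listed under both names was not tested. From new-1-3p to new-15-3p the differences are A11U and G21A, and from new-1-5p to new-15-5p A9U and G21U, counted from 1 at the 5′ end of the first name.

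Hairpins 7 and 25 were related in the same way by sequence, but all of their arms had ratios under 1. Exact complements shared the size of the difference here, and the direction did not part the arms. new-7-3p had 256 counts at 200 mM and 580 at 50 mM, 2.75-fold lower (2.37 to 3.20), and new-25-5p had 13 and 38, 3.55-fold lower (1.85 to 7.26). They are complementary over 19 nt with no mismatch, and both stayed called with TMM factors. new-7-5p had 1796 counts at 200 mM and 1723 at 50 mM, and new-25-3p had 1801 and 1726, ratios of 0.859 (0.803 to 0.918) and 0.860 (0.804 to 0.919). These are also exact complements over 19 nt, with near-equal counts, so they too do not count as separate observations. new-7-3p differs from new-25-3p by A11U alone. So a single base separated a name that was lower from one that was within 1.5-fold.

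Of the 10 hairpins with both arms compared, 7 had arms whose log2 ratios lay over 1 apart, and 3 had arms on opposite sides of 0. The 3 were hairpins 1, 15 and 9. Between hairpins 1 and 15, and between hairpins 7 and 25, 1 arm of each had near-equal counts, so these hairpins do not count as separate observations. All of them are among the 7. In hairpin 3, both arms stood lower at 200 mM and the 5p arm more so: new-3-5p had 830 counts at 200 mM and 2108 at 50 mM, 3.08-fold lower (2.84 to 3.34), and new-3-3p had 1160 and 1757, 1.84-fold lower (1.71 to 1.98). In the control library these had 1111 and 1661 counts. The 3p share of hairpin 3 in the 200 mM library was 58.3% (56.1% to 60.5%), and in the 50 mM library 45.5% (43.9% to 47.0%). The control library had 59.9%. In hairpin 5 the less counted arm, new-5-5p, was 3.34-fold lower (1.68 to 7.10), on 12 counts at 200 mM and 33 at 50 mM. The arms of hairpins 2 and 8 lay within 0.47 of each other on the log2 scale.

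**Figure D2:**
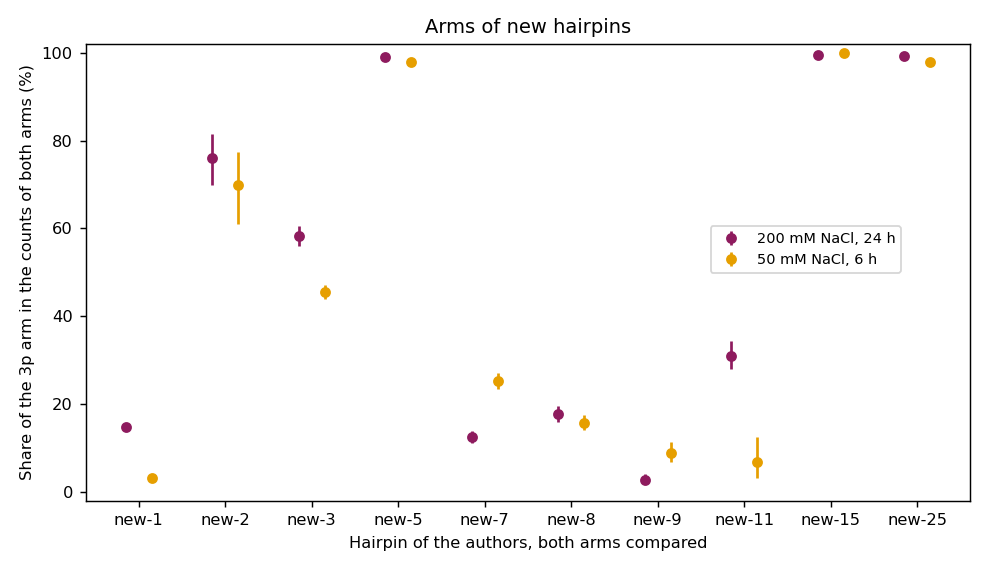
Share of the 3p arm in the summed counts of both arms (percent, y axis) for the 10 new hairpins whose arms were both compared (x axis), in the 200 mM library and the 50 mM library; bars are exact 95% binomial intervals. The share was 14.7% against 3.13% in new-1, 31.0% against 6.77% in new-11, and 12.5% against 25.2% in new-7.

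The phosphate families stood lower at 200 mM. miR399 targets the PHO2 ubiquitin conjugase in Arabidopsis and so promotes phosphate uptake, and miR827 targets SPX-domain genes of phosphate transport and sensing. The nutrient list held 6 compared names, of which none was higher and 3 were lower, all of miR399, against 18.9% lower over all names. Of the 3, 1 (miR399c) reached the minimum in the 50 mM library alone, so a higher count there was part of its choice. The median log2 ratio of the list was −0.87, beside −0.23 for all compared names. Summed over 13 names, miR399 was at 341 RPM at 200 mM and 999 RPM at 50 mM, a ratio of 0.341 (0.268 to 0.432), with 544 RPM in the control library. The 50 mM library was the high one of the 3. miR827 was at 1292 RPM at 200 mM and 1713 RPM at 50 mM, a ratio of 0.754 (0.673 to 0.846), with 966 RPM in the control library; its log2 ratio of −0.41 was −0.04 with TMM factors.

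Among the compared names of miR399, miR399c stood apart, while the intervals of miR399a and miR399b overlapped. miR399c had 19 counts (34.8 RPM) at 200 mM and 96 (214 RPM) at 50 mM, 6.13-fold lower (3.72 to 10.6), and 14 counts in the control library. miR399a had 107 and 216 counts, 2.45-fold lower (1.93 to 3.12), and miR399b had 41 and 76, 2.25-fold lower (1.52 to 3.37), with 179 and 49 in the control library. miR399a and miR399b were no longer called with TMM factors, and miR399b also not with median-of-ratios factors. miR399c differs from miR399a by G13U and U20C, and miR399b differs from miR399a by G13A. Of the 12 listed miR399 names with the same first 12 bases, the 6 with U at base 13 together had 29 counts at 200 mM and 138 at 50 mM, with 21 in the control library. They made up 15.7% of the counts of these 12 names at 200 mM, 30.7% at 50 mM and 7.61% in the control library. miR399c alone gave 19 of the 29 counts at 200 mM and 96 of the 138 at 50 mM. The grouping by base was chosen after the values were seen, and reads may be counted under several of the miR399 names.

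Some new names resemble miR399 or its complement. new-18 is complementary to miR399b over 19 nt with 1 mismatch. It had 9 counts (16.5 RPM) at 200 mM and 62 (138 RPM) at 50 mM, with 45 counts in the control library. This is 8.36-fold lower (4.13 to 19.1), the largest fold among the lower names. As new-18 reached the minimum in the 50 mM library alone, a higher count there was part of its choice. new-3-3p lies 4 single-base changes, insertions or deletions from miR399a, and new-3-5p 6 from its complement. All of these stood lower at 200 mM than at 50 mM. The names of miR395, a sulfate-linked family, were all under the minimum: each of the 8 had 3 counts at 200 mM, 0 at 50 mM and 3 or 4 in the control library. Counts of 0 allow up to 3, so no difference was detectable there at this depth.

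The auxin families were led by miR160, which targets the auxin response factors ARF10, ARF16 and ARF17 in Arabidopsis. Of the 22 compared names of the auxin-linked list, none was higher and 11 (50.0%) were lower, against 18.9% lower over all names. Of the 11, 2 reached the minimum in the 50 mM library alone. The 11 became 4 with TMM factors, all of miR160, against 16 of the 159 names. The 4, miR160a to miR160d, had near-equal counts and do not count as separate observations. Nor do miR393b to miR393d, which are among the 11 and had the same counts. The median log2 ratio of the list was −0.93 beside −0.23 for all names. It was −0.57 beside 0.13 with TMM factors, and −0.59 beside −0.31 with near-equal overlapping names joined. miR160d had 319 counts (585 RPM) at 200 mM and 754 (1677 RPM) at 50 mM, 2.87-fold lower (2.51 to 3.28), with 748 in the control library. The 200 mM library was thus the low one, and the other 2 lay close together. miR160a, miR160b and miR160c each had 316, 747 and 755 counts in the same order of libraries, though miR160a is the complement of the others. These names and miR160d, with its near-equal counts, do not count as separate observations. miR160e, which has A21G against miR160d, was 2.53-fold lower (2.07 to 3.11) and lost its call with TMM factors. miR160f, with U15A against miR160d, had 31 counts at 200 mM and 28 at 50 mM, a ratio of 0.912 (0.529 to 1.58). Its interval does not reach that of miR160d.

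miR164, which targets NAC factors of root branching, was at 150 RPM at 200 mM and 376 RPM at 50 mM, with 473 RPM in the control library. Its ratio was 0.3998 (0.239 to 0.657). Its 3 compared names were all lower, with miR164a at 27 counts against 46. miR164b (10 against 21) and miR164c (10 against 20) reached the minimum in the 50 mM library alone, so a higher count there was part of their choice. None of the 3 names stayed called when TMM or median-of-ratios factors were used. miR393 silences the auxin receptors of the TIR1/AFB group. It was at 401 RPM at 200 mM and 792 RPM at 50 mM, a ratio of 0.507 (0.363 to 0.704), with 459 RPM in the control library. Here the 50 mM library was the high one. The lower names were miR393b, miR393c and miR393d, which had the same counts (51 at 200 mM, 87 at 50 mM and 57 in the control library), and their call was lost under all 3 other scalings.

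miR167, which targets ARF6 and ARF8 in Arabidopsis, was level as a family and split within. Its sum was 14619 RPM at 200 mM and 14745 RPM at 50 mM, a ratio of 0.991 (0.913 to 1.08), with a log2 ratio of 0.35 with TMM factors. miR167d had 1421 counts at 200 mM and 862 at 50 mM, a ratio of 1.36 (1.25 to 1.48). miR167a had 1341 and 1444, a ratio of 0.765 (0.710 to 0.825), and miR167e had 684 and 856, a ratio of 0.658 (0.595 to 0.729). The 3 sequences differ in base 21 alone: A21G from miR167a to miR167d and A21U from miR167a to miR167e. Their intervals do not overlap between miR167d and the other two, and the order of the 3 ratios does not depend on scaling.

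**Figure D3:**
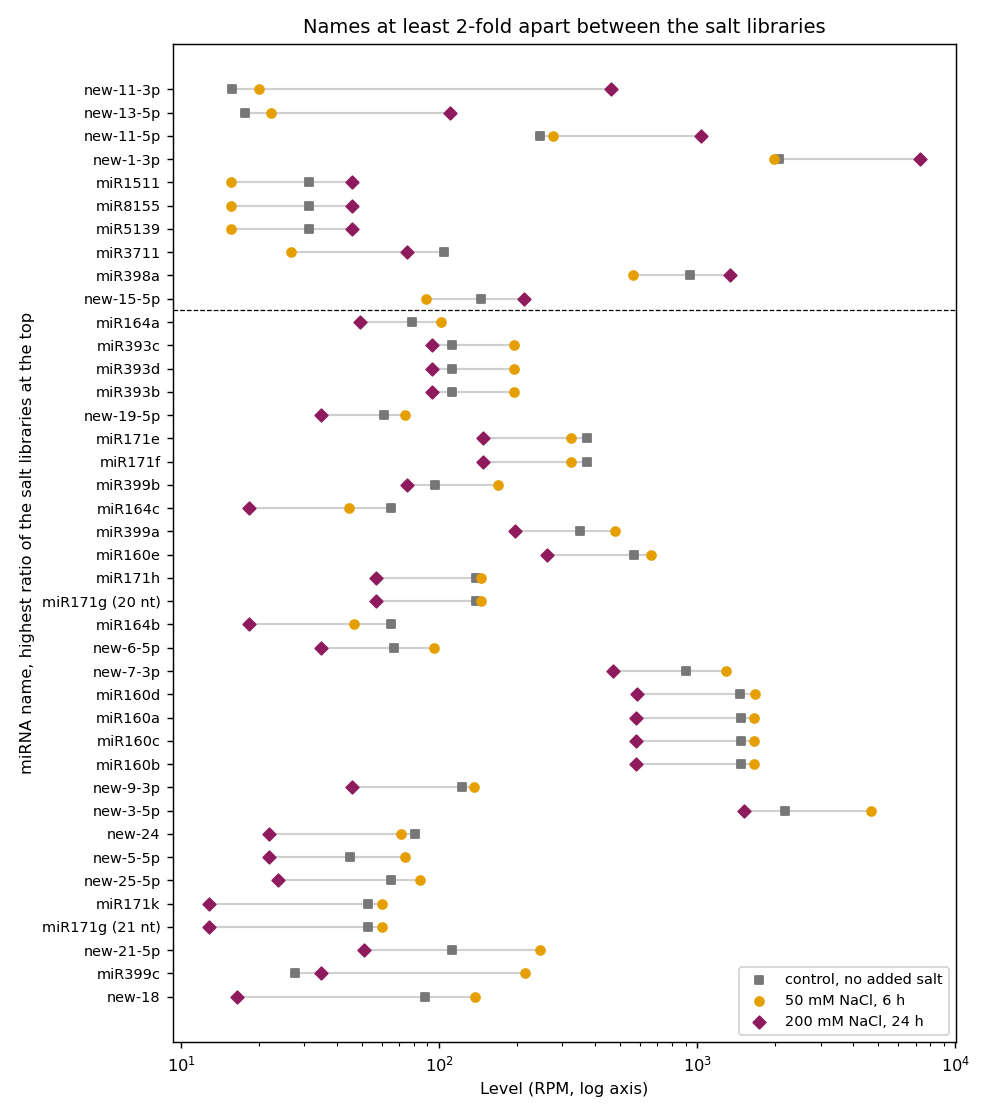
Level in RPM (log axis) of the 40 called names in the control library and the libraries of 50 mM and 200 mM NaCl, ordered from the highest to the lowest ratio of 200 mM over 50 mM; the dashed line parts the 10 higher from the 30 lower names. For the 4 names at the top and 23 of the lower names the control lies nearer to the 50 mM point. For miR398a and for the lower names miR399c, miR393b and new-3-5p it lies nearer to the 200 mM point.

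The control level, on the log2 scale, lay nearer to the 50 mM library for 4 of the 10 higher names and for 23 of the 30 lower names. The 4 were both arms of hairpin 11, new-13-5p and new-1-3p. Among the 7 lower names whose control level was nearer to 200 mM were miR399b, miR399c, new-3-5p and new-21-5p. new-21-5p had 28 counts at 200 mM, 110 at 50 mM and 57 in the control library, and was 4.77-fold lower (3.13 to 7.50). The control is itself 1 library, so these positions have no replicate check.

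The copper families parted. miR398 targets copper/zinc superoxide dismutases, miR408 plantacyanin and laccases, and miR397 laccases, and all are known to be made when copper is scarce. Of 10 compared names, 1 was higher and none lower, against 6.29% and 18.9% over all names. The median was −0.04, which turned to 0.33 with TMM factors. miR398a had 732 counts (1342 RPM) at 200 mM and 252 (561 RPM) at 50 mM, 2.39-fold higher (2.07 to 2.77), with 476 counts in the control library, which lay between. miR398b, with G2A in the seed against miR398a, had 399 and 248 counts, a ratio of 1.33 (1.13 to 1.56). miR398c, with G15A, had 48 and 39, a ratio of 1.01 (0.651 to 1.59). The interval of miR398a lies above those of both. Summed, miR398 had a ratio of 1.80 (1.56 to 2.09), miR408 0.955 (0.832 to 1.10; a log2 ratio of −0.07 that turned to 0.30 with TMM factors) and miR397 0.683 (0.436 to 1.06).

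The growth families held most of the counts. miR159 targets GAMYB-like MYB factors, miR319 TCP factors, miR165 and miR166 HD-ZIP III factors that pattern the root vasculature, and miR171 GRAS factors of the HAM group. Of the 64 compared names of this list, none was higher and 6 (9.38%) were lower, all of miR171, against 6.29% higher and 18.9% lower over all names. Of the 6, 2 (miR171k and the miR171g of 21 nt) reached the minimum in the 50 mM library alone, so a higher count there was part of their choice. The list had a median of −0.22, close to that of all names and likewise turned by TMM factors, to 0.14. miR159 took 50.4% of the counts at 200 mM and 41.1% at 50 mM, with 40.8% in the control library. miR166 took 22.5% at 200 mM and 26.9% at 50 mM, with 30.5% in the control library. With all new names taken as 1 family, 10.4% of the counts lay in another family between the salt libraries. Of this, 9.38 percentage points were the gain of miR159. These shares count near-equal overlapping names in full. Once such names were joined, 66.5% of the 200 mM counts and 62.3% of the 50 mM counts remained. The log2 ratio of miR159 was 0.30 as reported and 0.22 with such names joined.

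Within miR159, miR159a had 130976 counts (240064 RPM) at 200 mM and 81266 (180783 RPM) at 50 mM, a ratio of 1.33 (1.32 to 1.34), and miR159b, which differs from it by C20U and U21G, had 1.11 (1.10 to 1.12). The 16 compared names ran from −0.23 (miR159o) to 0.47 (miR159k) in log2 ratio. miR319 had a ratio of 1.12 (1.09 to 1.16), with names from −0.40 (miR319g) to 0.23 (miR319a). miR166 had a ratio of 0.835 (0.822 to 0.849), a log2 ratio of −0.26 that turned to 0.11 with TMM factors. miR858, which targets MYB factors of flavonoid synthesis, had 0.790 (0.757 to 0.825), a log2 ratio of −0.34 that turned to 0.03 with TMM factors. miR394 had 0.974 (0.872 to 1.09) and miR396, which targets growth-regulating factors, 0.703 (0.423 to 1.16).

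**Figure D4:**
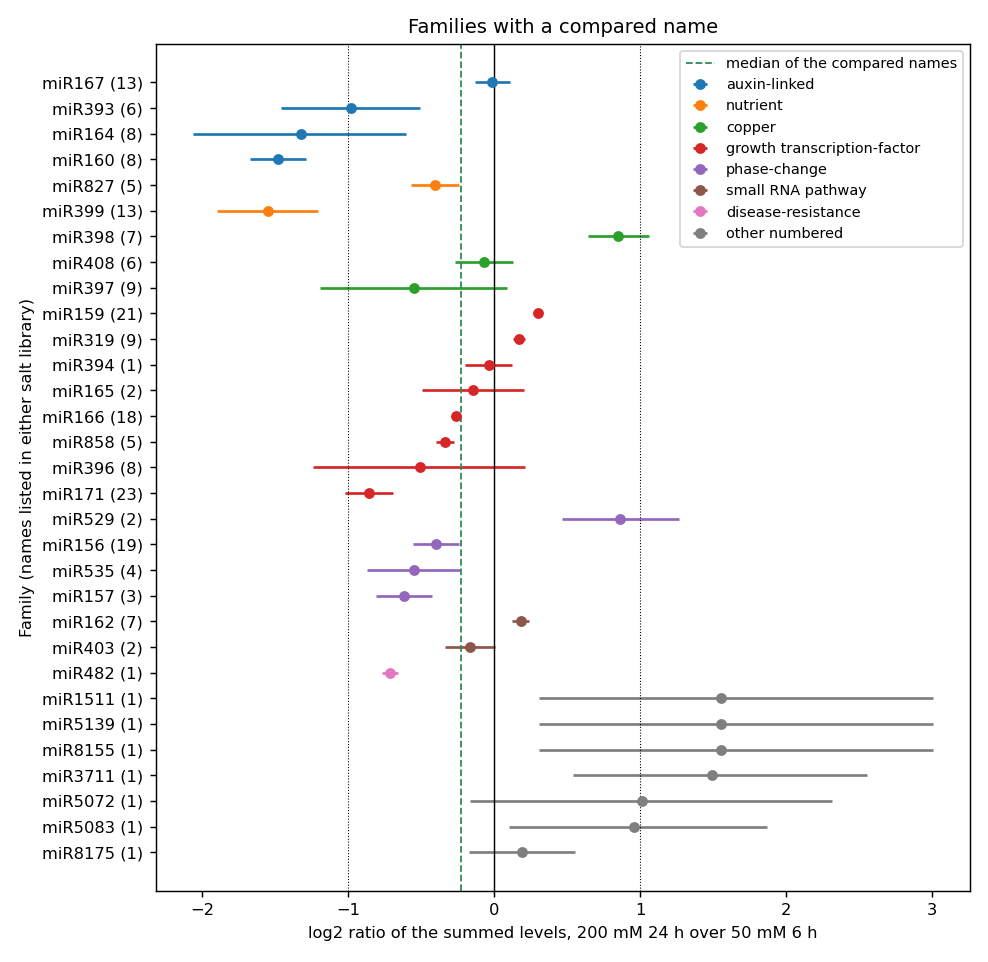
log2 ratio of the summed levels (200 mM, 24 h over 50 mM, 6 h) of the 31 families with a compared name, with the number of listed names in brackets and coloured by list. Bars are as wide as the 95% interval of the family's most counted name, dotted lines mark 2-fold and the dashed line the median of all compared names. miR399, miR160 and miR164 lie at −1.55, −1.48 and −1.32, and miR398 at 0.85.

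All 11 compared names of miR171 had ratios under 1, from a log2 ratio of −2.23 to −0.47, and the family's ratio was 0.551 (0.492 to 0.618). miR171a had 523 counts at 200 mM and 842 at 50 mM, a ratio of 0.512 (0.458 to 0.571), and miR171d had 527 and 715, a ratio of 0.607 (0.542 to 0.681). The rarer miR171k, from which miR171d differs by A21U, had 7 and 27 counts, 4.68-fold lower (1.99 to 12.7). It shared its counts with the 21 nt sequence named miR171g, which overlaps it. miR171h had 31 and 65 counts, 2.54-fold lower (1.63 to 4.04), as had the 20 nt sequence also named miR171g. These last, with miR171e and miR171f at 81 and 145 counts each, were no longer called with TMM factors. The control counts of miR171a, miR171d, miR171k and miR171h were 791, 720, 27 and 71, so in RPM the 200 mM library was the low one.

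**Figure D5:**
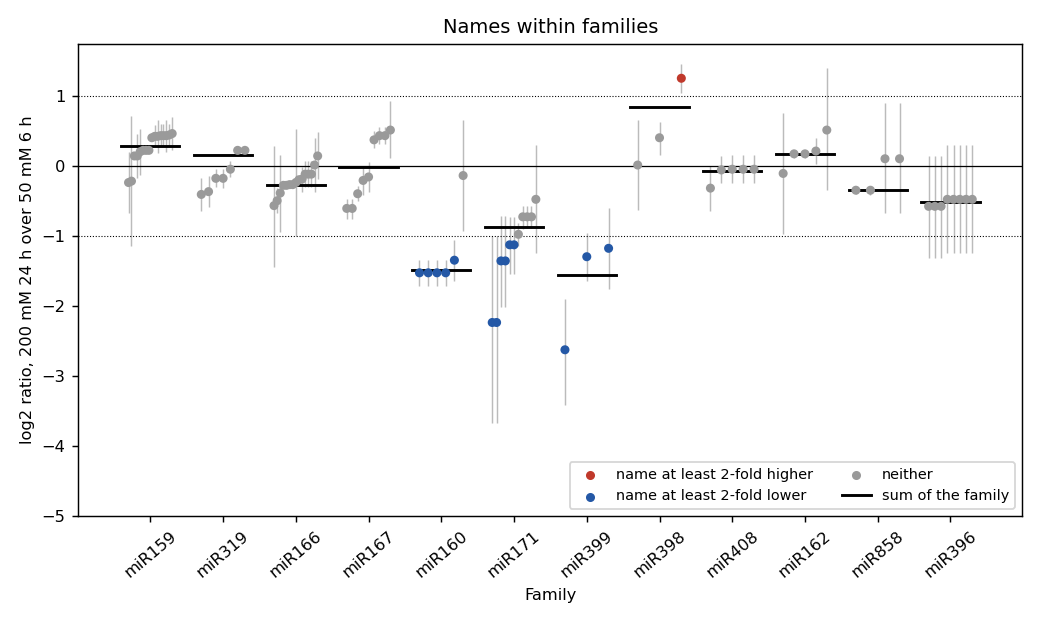
log2 ratio (200 mM, 24 h over 50 mM, 6 h) of each compared name, by family (x axis), with 95% intervals for counting error; black bars are the ratio of the family's sum. Names of miR160 lie together except miR160f at −0.13, the names of miR167 lie on both sides of 0, and miR398a at 1.26 stands above miR398b and miR398c.

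Shared seeds did not always go with shared ratios. The 159 names held 88 seeds, and 27 seeds were carried by 2 or more names. In 18 of these 27 every name lay on 1 side of 0, and the median range within a seed was 0.49 on the log2 scale. The widest ranges among seeds of 1 numbered family were 1.76 in miR171 (seed UGAGCCG), 1.45 in miR399 (GCCAAAG), 1.39 in miR160 (GCCUGGC), 1.24 in miR398 (GUGUUCU) and 1.05 in miR167 (GAAGCUG). By contrast the 6 names of miR396 with the seed UCCACAG ranged over 0.11 and the 3 of miR162 with CGAUAAA over 0.04. Several of these names had near-equal counts.

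The phase-change list, of families that target SPL and AP2 factors, had 7 compared names with none called and a median of −0.31, or 0.06 with TMM factors. miR156 had a ratio of 0.757 (0.678 to 0.844), miR157 0.653 (0.571 to 0.746) and miR535 0.682 (0.548 to 0.850). miR529a went the other way, with 173 counts at 200 mM, 78 at 50 mM and 52 in the control library, a ratio of 1.83 (1.39 to 2.42), and passed 2-fold with either TMM factors or median-of-ratios factors. In the small RNA pathway list, 7 names with none called had a median of 0.18. miR162, a regulator of DCL1 itself, stood at 1.13 times its 50 mM level (1.09 to 1.18), and miR403, a regulator of AGO2, 0.892 (0.791 to 1.01). miR482, known for silencing resistance genes of the NBS-LRR class, had 4643 counts at 200 mM and 6289 at 50 mM, a ratio of 0.608 (0.586 to 0.632), with 6166 in the control library.

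Among numbered names outside these lists, 7 reached the minimum, and these 7 had ratios over 1. All but miR8175, whose ratio was 1.14 (0.888 to 1.47), reached it in the 200 mM library alone, so a higher count there was part of their choice, and no count or median over them is given as a result. Names of this kind under the minimum went either way, with miR5368 at 0 counts at 200 mM and 7 at 50 mM, miR3630 at 2 and 5, and miR6173 at 3 and 1. Of the 7, miR1511, miR5139 and miR8155 overlap in sequence and had the same counts, 25 at 200 mM, 7 at 50 mM and 16 in the control library, a ratio of 2.94 (1.24 to 8.06). miR3711 had 41 counts at 200 mM, 12 at 50 mM and 53 in the control library, a ratio of 2.82 (1.45 to 5.88). miR5072 had 22 and 9, a ratio of 2.01 whose interval includes 1 (0.891 to 4.97). The 50 mM library was thus the low one for each of these names. They were not compared with transfer or ribosomal RNA here.

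Among the new names, 5 of 35 were higher (14.3%) and 10 lower (28.6%), with a median of −0.41. Of these, 2 higher and 6 lower names reached the minimum in a single salt library, so their direction was part of their choice. Of the 124 numbered names, 5 were higher (4.03%) and 20 lower (16.1%), with a median of −0.23. Their higher names include 4 that were set aside above for the same reason, so the 2 groups are not contrasted. New names took 13.2% of the 200 mM counts (13.1% to 13.3%) and 17.0% of the 50 mM counts (16.9% to 17.1%). The lower new names not yet given were new-24, with 12 counts at 200 mM and 32 at 50 mM, and new-6-5p, with 19 and 43. Other well-counted new names lay closer to 1: new-36 had a ratio of 1.35 (1.30 to 1.41), new-4-3p 0.880 (0.826 to 0.937) and new-10 0.998 (0.883 to 1.13). The new names, new-36 among them, were not compared with transfer or ribosomal RNA here.

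By first base, names that begin with U, the base favoured by the main miRNA Argonaute AGO1 in Arabidopsis, took 81.7% of the counts at 200 mM and 77.1% at 50 mM. The most counted names of miR159 begin with U, and that family alone took 50.4% and 41.1%. Of the 110 compared names with a first U, 5 (4.55%) were higher and 21 (19.1%) lower, close to the 6.29% and 18.9% over all names, with a median of −0.27. The 20 that begin with A had a median of 0.28, which turned to −0.03 once near-equal overlapping names were joined, and 4 higher and 3 lower names. By length, the 103 names of 21 nt had a median of −0.27, the 30 of 20 nt −0.16 and the 10 of 22 nt −0.51. The medians of 20 and 21 nt turned to 0.21 and 0.10 with TMM factors.

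Names listed in a single salt library had few counts. There were 24 such names at 200 mM, with at most 5 counts, and 26 at 50 mM, with at most 9. The largest was new-20 at 200 mM, and new-21-3p was among those at 9 counts at 50 mM. All of these counts lay under the minimum of 20, so none of these names was compared.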

How the data were processed

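Small RNA of root samples was sequenced as 1 library per condition. Per the labels' protocols, extraction used Trizol and an NEBNext kit for small RNA gave the libraries. The aligner and the reference are not given in the sources. The read counts deposited by the authors are whole numbers per miRNA name. The TPM values deposited by the authors were checked on every row: each is its count over the table's summed counts, times 1000000, with no length correction. They are called RPM here. Totals are sums over names, not sequencing depth. Names with no read in a library are not listed in its table and were taken as 0.

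Ratios have exact conditional binomial (Clopper-Pearson) 95% intervals, computed with scipy 1.17.1; amplified reads are not independent molecules, so intervals and floors cover counting error only. With 1 library per group no test and no p-value was computed. A family's interval takes its width from the name with most counts. TMM factors came from edgeR 4.0.16 on the compared names. The ratio and the rule for calls were tested on simulated counts. As an alternative, names were joined when their sequences, or 1 and the complement of the other, aligned over 16 nt or more without exceeding 2 mismatches and their counts differed by no more than 5% or 3 reads in every library.

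The members, the family lists and the alternatives were chosen with earlier results of these data known. Named miRNAs are up to 15 called names per direction, ranked by the interval bound nearest to 1, the 10 most abundant names at 200 mM, the 5 most abundant new names, new hairpins with both arms compared, every family of the lists with a listed name, the extreme names within a family, and names at the count minimum or in 1 library only. Other names were chosen after their values were seen.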

Additional observations from a re-analysis of the deposited data

How the results depend on the processing

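With 1 library per condition and amplified reads, the intervals leave out variation between plants and between library preparations, and the wide intervals of names under 100 counts limit what their ratios show. No paired analysis was possible because each condition has 1 library. The 30 lower names became 16 with TMM factors; the higher names became 6 with a minimum of 50 counts, which tests fewer names. With intervals wholly past 2-fold, 5 were higher and 10 lower. The other counts, with near-equal names joined (8 higher, 23 lower, and 8 and 21 with the totals left unchanged, an alternative chosen after seeing the data), with no count minimum (11 and 41) or no condition on the interval (11 and 30), stayed within 1.5 times.

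The median log2 ratio of −0.23 was 0.13 with TMM factors, 0.00 with median-of-ratios factors, −0.13 without miR159a in the totals, −0.28 with no minimum and −0.31 with names joined. By their construction these scalings shift all ratios alike, so signs near 0 turned. With TMM factors this held for miR165 (0.22), miR166 (0.11), miR167 (0.35), miR394 (0.33), miR403 (0.20), miR408 (0.30), miR858 (0.03), the numbered names (0.13), the copper list (0.33), the growth list (0.14), the phase-change list (0.06), names of 19 nt (0.18), 20 nt (0.21) and 21 nt (0.10), and names starting with C (0.11) or U (0.10). With median-of-ratios factors it held for miR165 (0.09), miR167 (0.22), miR394 (0.20), miR403 (0.07), miR408 (0.17), the copper list (0.19), the growth list (0.01), the numbered names (0.00), 19 nt (0.05) and 20 nt (0.08). With no minimum, 24 nt names had −0.28 and names starting with A −0.13; with names joined, those starting with A had −0.03, those with G 0.09 and those of 23 nt −0.06. The cause of these last 5 was not tested. Without miR159a in the totals, miR167 (0.10), miR394 (0.07), miR408 (0.04) and the copper list (0.07) turned. By its most counted name alone, miR167 had 0.38. No called name changed sign under the 3 scalings, and none could. A called name is at least 2-fold apart, and the largest shift is 0.37 on the log2 scale.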
